A study of Mus musculus with 116 samples.

Results

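The Igkv6 family segments described here are 8 variable (V) gene segments of the mouse immunoglobulin kappa light chain locus on chromosome 6, Igkv6-13, Igkv6-14, Igkv6-15, Igkv6-17, Igkv6-20, Igkv6-23, Igkv6-25 and Igkv6-32, out of 162 Igkv segments in the RefSeq annotation of GRCm38 (mm10). Their junctions were chosen by position: a junction row was counted for a segment when it lay within 100 bp of that segment. They made up 100827 of 1374899 rows (7.33%) over 42 libraries, and 99.9% of all rows could be given to some Igkv segment. Igkv6-29, which carries the same family name, was not among the 8 and had 1238 wild-type (WT) rows.

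Kappa light chain genes are assembled when the RAG recombinase cuts a V segment and a J segment at the border between the coding sequence and a recombination signal sequence (RSS), which consists of a heptamer, a spacer and a nonamer. The coding ends are opened hairpins that are joined into a coding joint, and the signal ends are joined separately; a coding end joined to a signal end is a hybrid joint. In the classical end-joining pathway the Ku70 and Ku80 proteins bind the broken ends and ligase IV (Lig4) seals them. When Ku or Lig4 is absent, ends can be joined by alternative end joining, which is known for lost end sequence and for short matching bases at the junction (microhomology).

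The cells were v-Abl pro-B cells, mouse B-lineage progenitors immortalised by the v-Abl oncogene, all carrying an Emu-Bcl2 transgene and held in G1 by 96 h in 3 µM STI-571, which inhibits the Abl kinase. Of 116 samples in the series, 42 read joins of the Jk1 coding end with a primer beside it (the bait, and the joined sequence is the prey) by LAM-HTGTS, which copies and sequences whatever DNA has joined to a chosen break. There were 14 groups of 3 replicates. The WT groups (Emu-Bcl2 alone) were clones A and B, and the Ku70-/- groups were clones A1 and B1. The Lig4-/- groups were clone A1 in 2 sets, clone B1 and clone C, and Lig4-/- cells with Lig4 added back (+Lig4) were clones A1 and C. The Lig4-/- Ku70-/- groups were clones A1_1 and C1, each also with Ku70 added back (+Ku70). Each genotype thus rests on 1 or a few clones, clones sharing a first letter were treated as 1 lineage, and the labels do not say whether replicates were separate cultures, so p-values measure only the spread between these libraries. The comparisons ask how joining of these segments differs without Ku70, and without both Ku70 and Lig4, when the control is the same lineage.

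All 8 segments are annotated as functional V segments and lay 265 to 648 kb from the Jk1 segment Igkj1. Igkv6-32 was the farthest (chr6:70074024-70074584) and Igkv6-13 the nearest (chr6:70457503-70458036). Between them, from far to near, were Igkv6-25 (chr6:70215433-70215957), Igkv6-23 (chr6:70260409-70260933), Igkv6-20 (chr6:70335841-70336479), Igkv6-17 (chr6:70371469-70371993), Igkv6-15 (chr6:70406469-70406992) and Igkv6-14 (chr6:70434952-70435476). Igkv6-17 and Igkv6-25 lie on the plus strand like Igkj1 and are joined by deletion, and the other 6 lie on the minus strand and are joined by inversion. The orientation of the coding joint was set for each segment by the WT majority, which held 97.1% to 99.8% of its WT rows.

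The ends that meet in these joins are shown because every later result is counted in bases from them. For each segment the last 30 bases of its coding end and the first 28 bases of its flank were read as a consensus from the deposited reads (mm10, coding strand, 5′ to 3′), with the heptamer and the nonamer of the RSS in capitals.
Igkv6-32: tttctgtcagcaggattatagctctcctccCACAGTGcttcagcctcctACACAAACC
Igkv6-17: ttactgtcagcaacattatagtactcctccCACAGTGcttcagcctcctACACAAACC
Igkv6-25: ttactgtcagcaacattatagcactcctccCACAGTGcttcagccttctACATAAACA
Igkv6-15: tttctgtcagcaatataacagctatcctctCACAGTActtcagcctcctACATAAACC
Igkv6-20: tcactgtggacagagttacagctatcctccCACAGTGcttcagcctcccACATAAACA
Igkj1 coding end: gtggacgttcggtggaggcaccaagctgga
The spacer between them was taken as 12 bases in all 7 flanks that could be read. The heptamer was CACAGTG in Igkv6-14, Igkv6-17, Igkv6-20, Igkv6-23, Igkv6-25 and Igkv6-32 and CACAGTA in Igkv6-15. Igkv6-17 and Igkv6-32 had the same flank in 28 of 28 bases and coding ends that matched in 25 of 30. Igkv6-17 and Igkv6-25 matched in 29 of 30 coding bases but only 25 of 28 flank bases. Igkv6-14 and Igkv6-23 shared 28 of 28 flank bases. Igkv6-15 and Igkv6-23 shared 29 of 30 coding bases. No flank is given for Igkv6-13.

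Depth differed widely between groups. Libraries held 47130 to 53074 rows in WT clone A, 291174 to 305846 in WT clone B, 3075 to 6383 in Ku70-/- clone A1, 50218 to 60811 in Ku70-/- clone B1, 1867 to 4188 in Lig4-/- Ku70-/- clone A1_1, 4457 to 7225 in clone C1, and 10577 to 35059 in the +Lig4 groups. These 24 libraries of 8 groups were compared by test, and the 18 libraries with Lig4-/- cells or +Ku70 cells, with 3 to 612 rows each, are given as counts. Distinct junctions were 9.46% of rows on average in WT clone B and 52.8% in Ku70-/- clone B1, so rows are not independent molecules, and intervals and floors below cover counting error only. Together the 8 segments took 5.90% ± 0.733 (SD, n = 3) of rows in WT clone A and 7.40% ± 0.126 in WT clone B. Their summed share was 6.17% ± 0.458 and 8.01% ± 0.165 in Ku70-/- clones A1 and B1, 5.49% ± 0.160 and 8.01% ± 0.650 in +Lig4 clones A1 and C, and 6.23% ± 1.11 and 12.02% ± 1.71 in Lig4-/- Ku70-/- clones A1_1 and C1. For contrast, the 13 Igkv3 segments took 12.3% and 11.8% in WT clones A and B and 8.69% and 4.93% in Ku70-/- clones A1 and B1, and 6.47% and 8.91% in +Lig4 clones A1 and C and 4.32% and 3.90% in Lig4-/- Ku70-/- clones A1_1 and C1. The 13 Igkv8 segments took 9.68% and 12.6% in WT, 11.2% and 11.9% in Ku70-/-, 10.9% and 10.1% in +Lig4, and 15.0% and 9.68% in the double mutants, in the same order of clones.

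**Figure D1:**
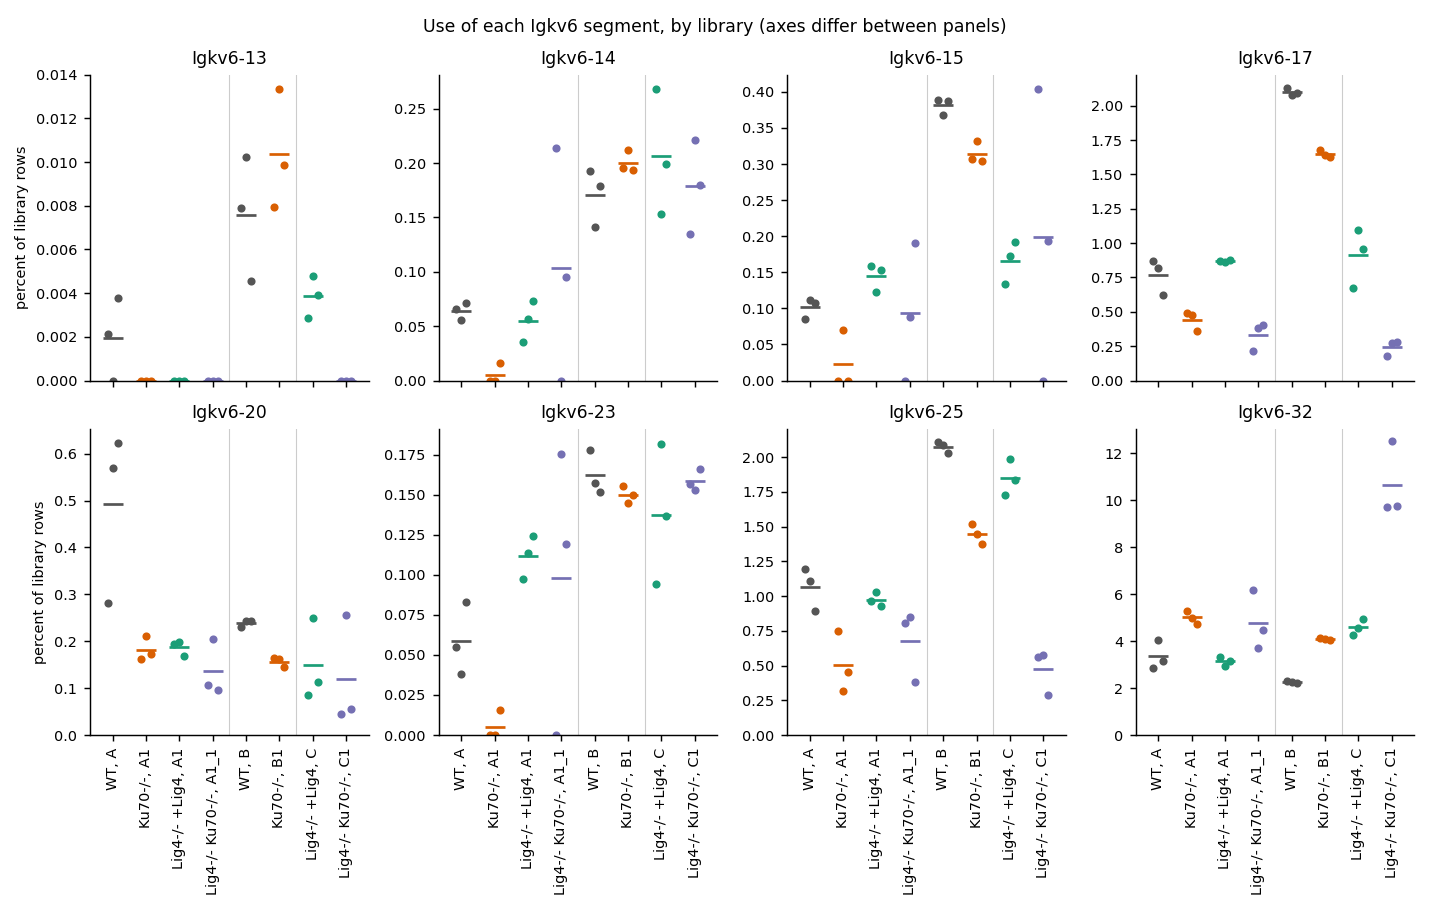
Percent of library rows (y axis, a different scale in each panel) taken by each of the 8 Igkv6 segments in the 24 deep libraries; each point is 1 library, each bar the mean of 3, colours mark genotypes and grey lines separate the clones of lineages A, B and C. Igkv6-32 is higher, and Igkv6-17 and Igkv6-25 are lower, in every Ku70-/- and Lig4-/- Ku70-/- group than in the WT or +Lig4 group of its lineage.

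Among the 8, Igkv6-32 was the most used in every deep group. It took 3.35% ± 0.619 (SD, n = 3) of rows in WT clone A, rank 4 of 162 segments, and 2.26% ± 0.0375 in WT clone B, rank 10. Igkv6-25 followed with 1.07% ± 0.157 and 2.08% ± 0.0407, then Igkv6-17 with 0.769% ± 0.130 and 2.10% ± 0.0280. In WT clone B the libraries of Igkv6-25 (2.11%, 2.09% and 2.03%) and Igkv6-17 (2.13%, 2.08% and 2.09%) overlapped, so these neighbours could not be ordered there. The remaining 5 were used rarely. Igkv6-20 took 0.492% ± 0.184 in WT clone A and 0.239% in WT clone B, Igkv6-15 took 0.101% and 0.382%, Igkv6-14 took 0.0643% and 0.171%, and Igkv6-23 took 0.0588% and 0.162%. Igkv6-13 was nearly unused, with 3 of 152292 rows in WT clone A and 67 of 890003 in WT clone B.

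The WT clones themselves differed. Of the 8 segments, 3 were higher and 1 lower in WT clone B than in WT clone A by limma with Benjamini-Hochberg adjustment over 118 segments (adjusted p of at most 0.05), where 33.1% of all segments tested were called, 20.3% higher and 12.7% lower. The higher ones were Igkv6-17 (log2 difference 1.46, SE 0.246, limma adjusted p = 3.32e-05), Igkv6-25 (0.97, limma adjusted p = 0.00966) and the little used Igkv6-13 (limma adjusted p = 0.0346, on 67 against 3 rows). The lower one was Igkv6-32 (-0.55, SE 0.147, limma adjusted p = 0.00457). This contrast was added after the data were seen, and the clone cannot be told apart from the sequencer and the number of raw reads used for normalisation, which was 167151 for clone A and 600000 for clone B.

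Without Ku70, Igkv6-32 made up more of the joins and Igkv6-25 and Igkv6-17 made up less. These are shares of fewer rows. Libraries of a lineage were normalised to the same number of raw reads, and pooled Igkv6-32 rows were fewer without Ku70. In lineage A they were 5120 in WT and 749 in Ku70-/- cells. In lineage B they were 20122 in WT and 6977 in Ku70-/- cells. Igkv6-32 took 2.85%, 4.04% and 3.16% of rows in WT clone A and 5.27%, 5.00% and 4.75% in Ku70-/- clone A1. In lineage B it took 2.30%, 2.25% and 2.23% in WT and 4.14%, 4.08% and 4.03% in Ku70-/-. Every Ku70-/- library lay above every WT library of its lineage. The log2 difference averaged over both lineages was 0.73 (SE 0.104, a 1.65-fold ratio on the log2 scale of percent with 0.5 rows added; limma adjusted p = 3.53e-06), and it was the 21st highest of 118. Igkv6-32 stood second of 162 segments in both Ku70-/- groups.

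Igkv6-25 took 1.20%, 1.11% and 0.893% in WT clone A and 0.748%, 0.317% and 0.454% in Ku70-/- clone A1. In lineage B it took 2.11%, 2.09% and 2.03% against 1.52%, 1.45% and 1.38%. Igkv6-25 was lower in all Ku70-/- libraries of both lineages (log2 difference -0.82, SE 0.206, limma adjusted p = 0.00259). Igkv6-17 took 0.868%, 0.816% and 0.622% in WT clone A and 0.488%, 0.476% and 0.360% in Ku70-/- clone A1. In lineage B it took 2.13%, 2.08% and 2.09% against 1.68%, 1.64% and 1.63%. The groups of Igkv6-17 did not overlap in either lineage (log2 difference -0.56, SE 0.174, limma adjusted p = 0.0147).

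Of the 8 segments, 2 were called higher and 2 lower in Ku70-/- cells, where the background over all 118 segments tested was 16.1% higher and 12.7% lower (28.8% in all). The second one called higher was Igkv6-13 (limma adjusted p = 0.0131). It had 0 rows in all 3 Ku70-/- clone A1 libraries and 0 to 2 in WT clone A, so its value rests on the 0.5 rows added and is no direction. In lineage B its libraries overlapped, at 0.00797%, 0.0133% and 0.00987% in Ku70-/- and 0.00790%, 0.0102% and 0.00458% in WT. Igkv6-14, Igkv6-15, Igkv6-20 and Igkv6-23 did not pass the test (limma adjusted p = 0.0680 to 0.184), with log2 differences of -0.94, -1.25, -0.94 and -1.02. Igkv6-20 was called lower when WT clone A replicate 1 was left out (log2 difference -1.12, limma adjusted p = 0.0360). In Ku70-/- clone A1, Igkv6-14 and Igkv6-23 had 1 row each over 3 libraries and Igkv6-15 had 4. The median log2 difference was -0.88 over the 8 segments and -0.03 over all 118.

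Where both genotypes shared a sequencing run, as the read identifiers show, the differences of these 3 segments had the same sign within it. In lineage A, 2 runs held both genotypes, and the within-run log2 difference of Igkv6-32 was 0.45 on average (0.31 and 0.59), of Igkv6-25 -1.36 and of Igkv6-17 -0.76. In lineage B all 6 libraries shared 1 run, so its values, 0.85, -0.52 and -0.35, are those of the whole lineage. Tested within lineage A alone, Igkv6-32 and Igkv6-13 were called higher and Igkv6-14, Igkv6-17, Igkv6-23 and Igkv6-25 lower, 6 of 8 beside a background of 14.4% higher and 10.2% lower (24.6% in all). The Igkv6-13 call rests on the 0.5 rows added, with 0 rows in Ku70-/- clone A1 and 3 in WT clone A. Within lineage B alone only Igkv6-32 was called (1 of 8, background 11% higher and 8.47% lower, 19.5% in all), and Igkv6-25 and Igkv6-17 were not (limma adjusted p = 0.268 and 0.401). The lineages differed in the sign for Igkv6-14, which took 0.195%, 0.212% and 0.194% in Ku70-/- clone B1 and 0.192%, 0.142% and 0.179% in WT clone B, but the difference between the Ku70-/- effects of the lineages was called for 0 of 8 segments (limma, with Igkv6-14 and Igkv6-23 at an unadjusted p under 0.05; background 7.63% in each direction, 15.3% in all).

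The double mutant was compared with +Lig4 cells, the Lig4-/- clones of the same lineage to which Lig4 had been returned. Igkv6-32 took 3.34%, 2.96% and 3.15% in +Lig4 clone A1 and 6.16%, 3.71% and 4.49% in Lig4-/- Ku70-/- clone A1_1. In lineage C it took 4.27%, 4.56% and 4.93% against 9.69%, 12.5% and 9.74%. All double mutant libraries were above all +Lig4 libraries of the lineage, and in clone C1 Igkv6-32 ranked first of 162 segments. The mean log2 difference was 0.89 (SE 0.104, limma adjusted p = 2.25e-07). Pooled Igkv6-32 rows were again fewer in the double mutant. They were 1123 in +Lig4 clone A1 and 430 in clone A1_1, and 3713 in +Lig4 clone C and 1871 in clone C1.

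Both deletional members were lower in the double mutant. Igkv6-17 took 0.867%, 0.860% and 0.875% in +Lig4 clone A1 and 0.214%, 0.380% and 0.406% in clone A1_1. In lineage C it took 0.676%, 1.10% and 0.957% against 0.179%, 0.272% and 0.277%. Neither lineage showed overlap (log2 difference -1.60, SE 0.174, limma adjusted p = 9.66e-08). Igkv6-25 took 0.974% ± 0.0527 (SD, n = 3) and 1.85% ± 0.129 in +Lig4 clones A1 and C, and 0.678% ± 0.257 and 0.477% ± 0.161 in the double mutants, again without overlap (log2 difference -1.28, SE 0.206, limma adjusted p = 1.10e-05).

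In all, 2 of the 8 were called higher and 2 lower, against a background of 17.8% higher and 39.8% lower (57.6% in all). Within lineage A alone Igkv6-32 and Igkv6-13 were higher and Igkv6-17 lower (3 of 8, background 16.1% higher and 25.4% lower, 41.5% in all), and Igkv6-25 was not called (log2 difference -0.57, limma adjusted p = 0.117). Within lineage C alone Igkv6-32 was higher and Igkv6-17 and Igkv6-25 lower (3 of 8, background 13.6% higher and 30.5% lower, 44.1% in all). The effect itself differed between the lineages for Igkv6-32 and Igkv6-25 (2 of 8, background 4.24% higher and 9.32% lower, 13.6% in all). The other one called higher was again Igkv6-13 (limma adjusted p = 0.00925), with 0 rows in 9 of the 12 libraries and 1 row in each +Lig4 clone C library, so it carries no direction. Counting rows of both orientations, Igkv6-14, Igkv6-15, Igkv6-20 and Igkv6-23 overlapped between the genotypes in both lineages. They were not called (limma adjusted p = 0.294 to 0.932), but Igkv6-20 was called lower when clone C1 replicate 2 was left out (log2 difference -0.79, limma adjusted p = 0.0417). The +Lig4 and Lig4-/- Ku70-/- libraries shared no sequencing run, so the effect of the run cannot be told apart from that of the genotype. Over all segments, 12 of 71 inversional segments were higher and 32 lower, and 9 of 47 deletional segments were higher and 15 lower.

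The higher share of Igkv6-32 among all rows came with joins of the opposite orientation, a split added after the data were seen. Opposite rows run from the Jk1 coding end into the flank that holds the segment's RSS, the geometry of a hybrid joint. Coding-orientation rows of Igkv6-32 were 2.84%, 4.00% and 3.11% of the library in WT clone A and 1.72%, 2.54% and 2.37% in Ku70-/- clone A1. In lineage B they were 2.29%, 2.24% and 2.22% in WT and 2.45%, 2.41% and 2.44% in Ku70-/-. So they were lower than WT in lineage A and slightly higher in lineage B, without overlap in either. Opposite rows were at most 0.0452% of any WT library, 3.54%, 2.47% and 2.38% in Ku70-/- clone A1, and 1.69%, 1.67% and 1.59% in Ku70-/- clone B1. In coding-orientation rows alone, as percent of all rows, the log2 difference of Igkv6-32 was -0.23 (limma adjusted p = 0.169). As percent of all coding-orientation rows it was 0.29 (limma adjusted p = 0.152), an average over lineages that differed. In lineage B Igkv6-32 was 2.30%, 2.24% and 2.22% of coding-orientation rows in WT and 3.49%, 3.45% and 3.53% in Ku70-/-, without overlap, and in lineage A it was 3.33% ± 0.612 (SD, n = 3) and 3.17% ± 0.387, with overlap. Neither average was called, where 44.1% and 22.0% of the 118 segments were.

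**Figure D2:**
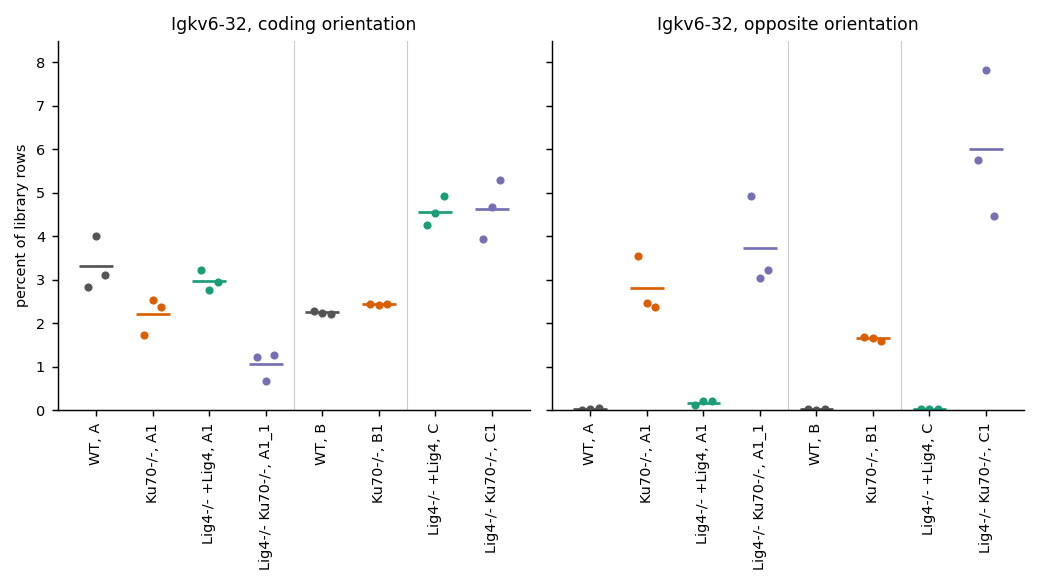
Igkv6-32 rows as percent of all rows of the library (y axis, same scale), in the coding orientation (left) and the opposite orientation (right); each point is 1 library and each bar the mean of 3. Opposite rows are near 0 in WT and +Lig4 libraries and reach 1.59% to 7.83% in Ku70-/- and Lig4-/- Ku70-/- libraries.

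In the double mutant the split was wider. Coding-orientation rows of Igkv6-32 were 3.23%, 2.76% and 2.95% in +Lig4 clone A1 and 1.23%, 0.673% and 1.27% in clone A1_1. In lineage C they were 4.25%, 4.54% and 4.92% in +Lig4 and 3.93%, 4.68% and 5.29% in clone C1, which overlapped. Opposite rows were 4.93%, 3.04% and 3.22% in clone A1_1 and 5.77%, 7.83% and 4.46% in clone C1, and at most 0.199% in +Lig4 cells. The log2 difference in coding-orientation rows alone was -0.76 as percent of all rows (limma adjusted p = 4.50e-05, background 61.9%) and -0.18 as percent of coding-orientation rows (limma adjusted p = 0.298, background 52.5%). The first of these values joins a lineage in which the genotypes were apart with one in which they overlapped. The second joins lineages that were apart in opposite directions. Igkv6-32 was 3.29%, 2.84% and 3.07% of coding-orientation rows in +Lig4 clone A1 and 2.09%, 1.00% and 2.00% in clone A1_1, but 4.27%, 4.55% and 4.93% in +Lig4 clone C and 5.75%, 7.05% and 7.39% in clone C1.

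For Igkv6-17 and Igkv6-25, mean coding-orientation rows were lower without Ku70, and opposite rows offset part of this except for Igkv6-17 in clone A1. There Igkv6-17 had 0 opposite rows, and its coding rows were 0.441% of the library beside 0.768% in WT clone A. In Ku70-/- clone B1 opposite rows were 0.306% and 0.350% of the library beside 1.34% and 1.10% of coding rows, and the coding rows of WT clone B were 2.09% and 2.07%. As percent of all rows, coding-orientation rows gave log2 differences of -0.70 for Igkv6-17 and -1.23 for Igkv6-25 in Ku70-/- cells (limma adjusted p = 0.00119 and 0.000384), and -1.91 and -1.79 in the double mutant (limma adjusted p = 1.26e-09 and 1.64e-06). As percent of coding-orientation rows, the Ku70-/- differences were -0.18 and -0.70 and no longer passed (limma adjusted p = 0.485 and 0.0614), while the double mutant ones, -1.33 and -1.21, did (limma adjusted p = 5.42e-07 and 0.000601).

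The double mutant and Ku70-/- cells could be compared only in lineage A, where they shared 3 runs. Igkv6-32 did not pass the test (log2 difference -0.09, SE 0.147, limma adjusted p = 0.655), and the 3 within-run values ran from -0.43 to 0.23. Of the 8 segments, 2 were called, both higher in the double mutant, Igkv6-23 (limma adjusted p = 0.00289) and Igkv6-14 (limma adjusted p = 0.0165), beside a background of 15.3% higher and 14.4% lower (29.7% in all). They rest on 0, 6 and 5 rows against 0, 0 and 1 for Igkv6-23 and on 4, 0 and 4 against 0, 0 and 1 for Igkv6-14, and the libraries overlapped. Igkv6-14 was not called without Ku70-/- clone A1 replicate 2 (limma adjusted p = 0.0698) or without Lig4-/- Ku70-/- clone A1_1 replicate 1 (0.121) or replicate 3 (0.0560). Without the last of these Igkv6-25 was called higher (log2 difference 0.80, limma adjusted p = 0.0345), and without Ku70-/- clone A1 replicate 2 Igkv6-15 was (2.87, limma adjusted p = 0.0331). Among coding-orientation rows Igkv6-32 was lower in the double mutant (log2 difference -0.95, limma adjusted p = 0.00108).

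Returning Lig4 to Lig4-/- clone A1 gave libraries in which none of the 8 segments was called against WT clone A by limma (0 of 8, with 1 at an unadjusted p under 0.05, Igkv6-20), beside a background of 7.63% higher and 4.24% lower (11.9% in all). Igkv6-32 had a log2 difference of -0.07 (SE 0.147, limma adjusted p = 0.768). Igkv6-20 took 0.195%, 0.199% and 0.168% in +Lig4 and 0.282%, 0.570% and 0.624% in WT, groups that did not overlap (log2 difference -1.29, SE 0.539, limma adjusted p = 0.117). Igkv6-23 (0.112% in +Lig4 and 0.0588% in WT on average) and Igkv6-15 (0.145% and 0.101%) did not overlap either, with values on the other side (limma adjusted p = 0.331 and 0.768). Opposite rows of Igkv6-32 were 3.44%, 6.71% and 6.25% of its rows in +Lig4 clone A1 and 0.149%, 0.856% and 1.43% in WT clone A, and these did not overlap either. This was not particular to Igkv6-32, as over all segments the opposite share was 2.88% and 0.289% on average in the same groups. These genotypes shared no run either.

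The structure of the joins was tested for Igkv6-32 alone, because it was the only one of the 8 with at least 20 rows in each library of the 2 comparisons made over 2 lineages. Each test was a two-sided exact permutation test within lineages (400 relabellings, smallest possible p of 0.005) with Benjamini-Hochberg adjustment over all segments with that depth, 46 for Ku70-/- against WT and 26 for the double mutant against +Lig4. In WT libraries 0.149% to 1.43% of Igkv6-32 rows were in the opposite orientation. In Ku70-/- they were 67.3%, 49.3% and 50.2% in clone A1 and 40.8%, 40.9% and 39.5% in clone B1. The mean difference was 47.3 percentage points (exact permutation p = 0.005, adjusted p = 0.005). All 46 segments tested were called higher (100%), with a median difference of 33.4 points, and Igkv6-32 stood 6th.

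**Figure D3:**
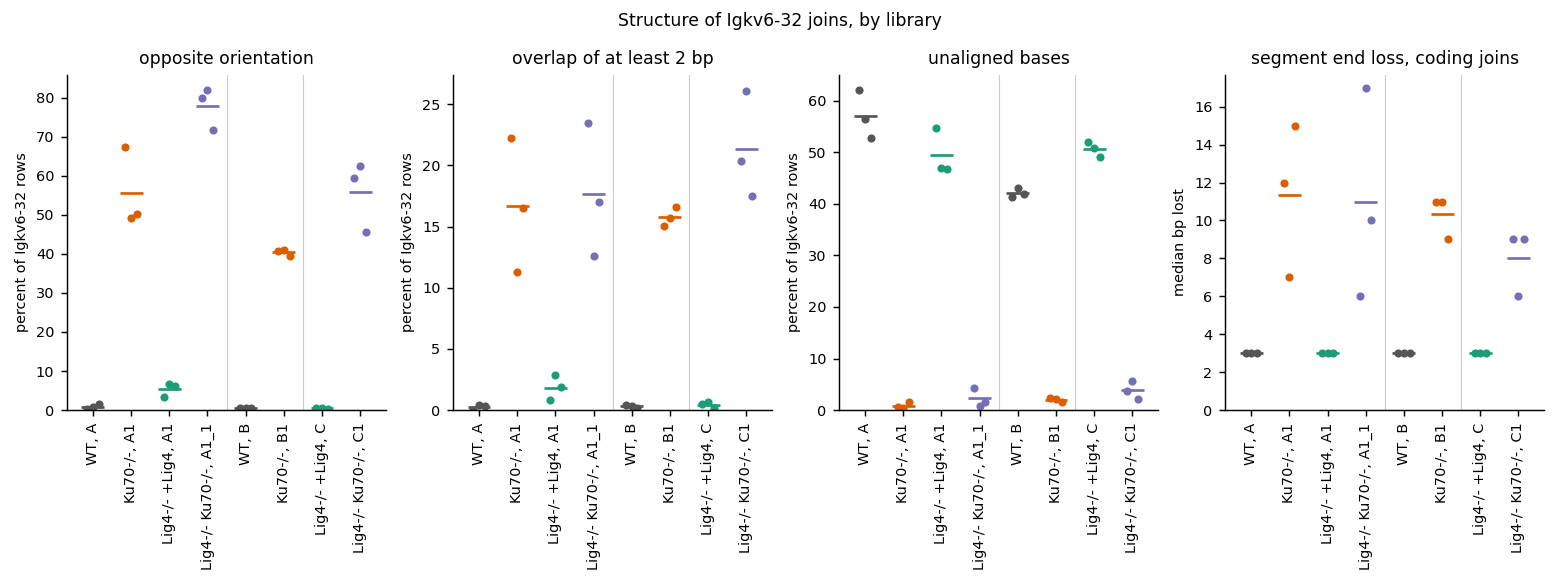
Structure of Igkv6-32 joins by library: percent of its rows in the opposite orientation, with an overlap of at least 2 bp, and with unaligned (inserted) bases, and the median bp lost from the segment's end in coding joins; each point is 1 library and each bar the mean of 3. Ku70-/- and Lig4-/- Ku70-/- libraries stand apart from WT and +Lig4 libraries in all 4 panels.

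Overlaps of at least 2 bp between the alignments of the ends were counted as microhomology and were in 0.226% and 0.314% of Igkv6-32 rows on average in WT clones A and B. They were in 22.2%, 11.3% and 16.5% in Ku70-/- clone A1 and 15.0%, 15.7% and 16.6% in clone B1. The difference was 15.9 points (exact permutation p = 0.005, adjusted p = 0.00535), 29th highest of 46, where 97.8% of segments were called higher and 2.17% lower. Within Ku70-/- clone B1, microhomology was in 11.9%, 12.2% and 12.5% of coding-orientation rows and in 19.6%, 20.8% and 22.9% of opposite rows, which did not overlap. An alignment overlap can hold a mismatched base, so the bases were set against the consensus of both ends where these were known. In Ku70-/- clone B1 they matched both in 83.3%, 90.2% and 86.9% of such rows, and in Ku70-/- clone A1 in 18 of 24, 8 of 23 and 27 of 27. Overlaps known to match both ends were in 2.82% to 11.1% of Igkv6-32 rows in Ku70-/- libraries and at most 0.269% in WT libraries. Overlaps beyond the known bases were not checked but stay among the rows, so these shares are lower bounds.

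Inserted bases went the other way. They were in 62.0%, 56.6% and 52.7% of Igkv6-32 rows in WT clone A and 41.4%, 43.1% and 42.0% in WT clone B. Ku70-/- clone A1 had 0.617%, 0.352% and 1.65% and clone B1 had 2.36%, 2.13% and 1.59%. The genotypes were far apart in both lineages (-48.2 points, exact permutation p = 0.005, adjusted p = 0.005), and all 46 segments were called lower (100%). The median loss from the segment's end in coding joins was 3 bp in all 6 WT libraries. It was 12, 7 and 15 bp in Ku70-/- clone A1 and 11, 11 and 9 bp in clone B1. The difference was 7.83 bp (exact permutation p = 0.005, adjusted p = 0.005). All 46 segments were called higher (100%), and the difference of Igkv6-32 was 41st of 46 from the highest, below the median of 14.3 bp.

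The bases themselves show the change. The most frequent coding joins of Igkv6-32 are given for both genotypes, with inserted or overlapping bases in capitals.
WT, most frequent: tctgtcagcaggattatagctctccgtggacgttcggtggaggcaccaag
WT, with 1 inserted base: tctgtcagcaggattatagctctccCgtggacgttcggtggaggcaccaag
Ku70-/-, most frequent: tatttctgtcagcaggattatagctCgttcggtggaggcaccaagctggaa
The first kept all of the Jk1 end and lost 3 bp of Igkv6-32, and it was 2231 of 25081 WT coding rows (8.90%), in 6 of 6 libraries. The WT join with 1 inserted C was 1521 rows (6.06%). The Ku70-/- join lost 6 bp of the segment and 5 bp of Jk1 with a 1-bp overlap, and it was 165 of 4507 coding rows (3.66%), in 6 of 6 libraries. The join that leads in WT Igkv6-32 also led in WT for Igkv6-17 (2547 of 19793 coding rows, 12.9%) and Igkv6-25 (2032 of 20026, 10.1%), each with 3 bp lost and the full Jk1 end.

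Inserted bases in WT often matched the base opposite the Jk1 end. In WT clone A the single base C was the most frequent insert of Igkv6-32, 13.4% of 2877 inserts. Where the Jk1 end was whole, the last inserted base was the complement of its first base, a palindromic base as a nicked hairpin leaves, in 74.8% of rows with an insert, and where the end was trimmed that same base was found in 24.3%. In WT clone B these values were 80.1% and 25.6%. The other members gave 63.6% to 90.4% next to a whole Jk1 end and 15.4% to 36.7% next to a trimmed one in the WT groups, where the lowest of each range is Igkv6-13 with 37 inserts.

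**Figure D4:**
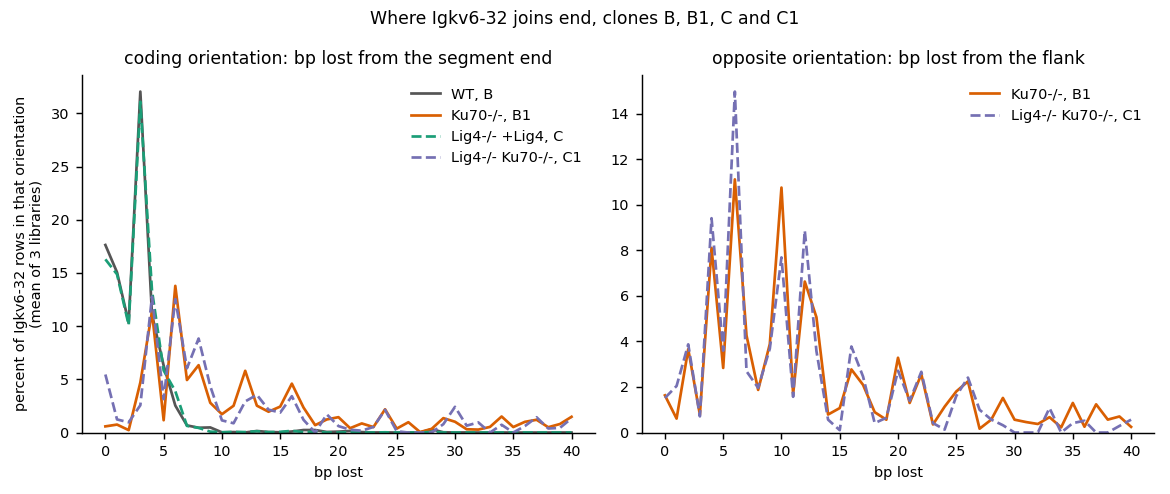
Percent of Igkv6-32 rows of an orientation (y axis, mean of 3 libraries) that lost each number of bp (x axis, 0 to 40 bp) from the segment's coding end (left) or from its flank (right); lines are groups of clones B, B1, C and C1, and WT and +Lig4 have too few opposite rows to be drawn. Coding joins peak at 3 bp lost in WT and +Lig4 and are spread over longer losses in Ku70-/- and Lig4-/- Ku70-/- cells.

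Coding joins of Igkv6-32 peaked at 3 bp lost in every WT and +Lig4 group, with 32.1% of rows at that base in WT clone B and 31.1% in +Lig4 clone C. Losses of at most 5 bp covered 92.4% of coding rows in WT clone B, 18.8% in Ku70-/- clone B1, 91.5% in +Lig4 clone C and 26.1% in Lig4-/- Ku70-/- clone C1. The peak moved to 6 bp in Ku70-/- clones A1 (18.0%) and B1 (13.8%). In the double mutants it was at 6 bp in clone A1_1 (12.7%, 99 rows) and at 4 bp in clone C1 (12.8%). Opposite rows of Ku70-/- clone B1 and Lig4-/- Ku70-/- clone C1 both peaked at 6 bp lost from the flank, with 11.1% and 15.0% of rows, and both had further peaks at 4, 10 and 12 bp. In lineage A, with fewer rows, the peaks were elsewhere, at 2 bp in Ku70-/- clone A1 (9.10%, 401 rows) and at 10 bp in Lig4-/- Ku70-/- clone A1_1 (15.0%, 331 rows). All these peaks fall inside the heptamer and the spacer printed above. Precise hybrid joints, with no base lost on either side, were 0 of 3219 opposite Igkv6-32 rows in Ku70-/- cells. No such count is given for the other genotypes. Counting loss from the flank alone, the 44 opposite rows of WT clone A peaked at 0 bp (39.8%). The 117 of WT clone B peaked at 2 bp (13.1%).

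The other members could be described in lineage B, where they had enough rows. In WT clone B, each of the 7 segments other than Igkv6-13 had on average at most 1.03% of rows in the opposite orientation. In Ku70-/- clone B1 pooled opposite shares were 40.4% for Igkv6-32 (6977 rows), 33.0% for Igkv6-20 (267 rows), 27.0% for Igkv6-15 (538 rows), 25.0% for Igkv6-23 (256 rows), 24.2% for Igkv6-25 (2468 rows), 19.8% for Igkv6-14 (343 rows) and 18.7% for Igkv6-17 (2814 rows). The 3 libraries of Igkv6-32 lay above all libraries of the other 6 members. Igkv6-13 had 6 of 18 rows in the opposite orientation. Over all segments the opposite share was 29.9% ± 0.547 (SD, n = 3) in this group. The order of the members was not the same in Lig4-/- Ku70-/- clone C1. There opposite rows were 0.126% and 0.153% of the library for Igkv6-14 and Igkv6-15, beside 0.0529% and 0.0466% of coding rows (32 rows each). For Igkv6-32 they were 6.02% beside 4.63%. For Igkv6-23 they were 0.0807% beside 0.0781%, and Igkv6-17, Igkv6-20 and Igkv6-25 had fewer opposite than coding rows.

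**Figure D5:**
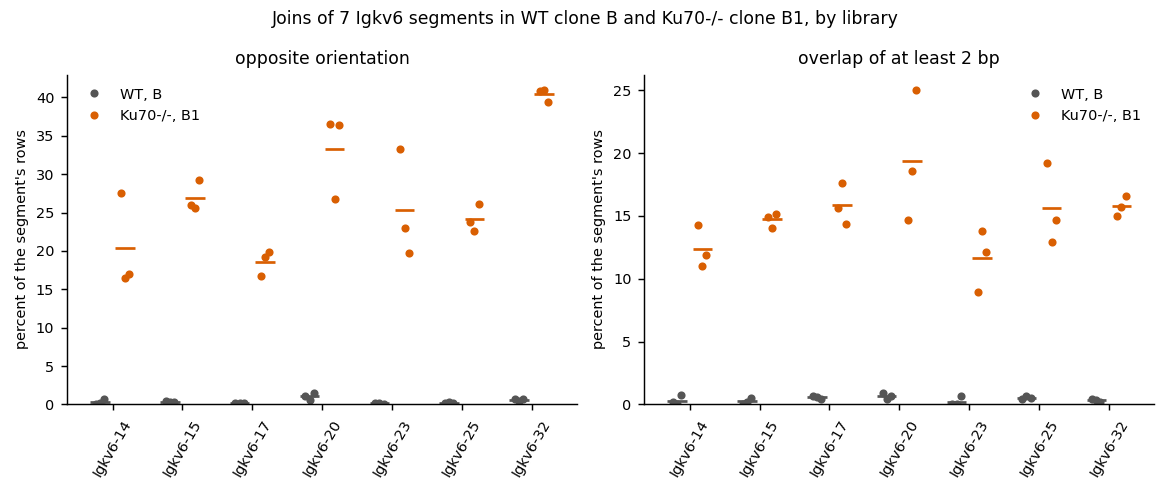
Percent of each segment's rows in the opposite orientation (left) and with an overlap of at least 2 bp (right) for 7 Igkv6 segments in WT clone B and Ku70-/- clone B1; each point is 1 library and each bar the mean of 3. In every one of the 7 the Ku70-/- libraries lie above the WT libraries, and Igkv6-32 has the highest opposite shares.

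Their other features were closer to each other. In Ku70-/- clone B1, pooled microhomology ran from 11.7% (Igkv6-23) to 19.5% (Igkv6-20), and Igkv6-32 lay between at 15.8%. Inserted bases were in 0.781% to 2.25% of rows for the 7, where WT clone B had 40.6% (Igkv6-17) to 55.2% (Igkv6-14). The pooled median loss from the segment's end was 11 bp for Igkv6-14, Igkv6-15 and Igkv6-32, 15 bp for Igkv6-20 and Igkv6-23, and 16 bp for both deletional members, Igkv6-17 and Igkv6-25, and it was 3 bp for all 7 in WT clone B. No test was made of differences between members, which share libraries.

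With a lower minimum of 10 rows in each library, a setting added after the data were seen, Igkv6-25 and Igkv6-17 also entered the Ku70-/- comparison. There 64 of 66 segments were called for orientation, 66 of 66 for microhomology and for insertions, and 65 of 65 for loss. Igkv6-25 was called in all 4 measures by the exact permutation test, with 24.2 points more opposite rows (adjusted p = 0.00559), 17.4 points more microhomology (adjusted p = 0.0213), 15.3 bp more loss (adjusted p = 0.00516) and 50.4 points fewer insertions (adjusted p = 0.005). Igkv6-17 was called for loss (12.3 bp, exact permutation adjusted p = 0.00516), insertions (-46.9 points, adjusted p = 0.005) and microhomology (10.4 points, adjusted p = 0.05) but not for orientation (9.16 points, exact permutation adjusted p = 0.1). Its lineages differed in that measure. Opposite rows were 0 of 65 in Ku70-/- clone A1, which allows a share of up to 4.62%, and 526 of 2814 (18.7%) in clone B1.

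Igkv6-25 also entered the comparison of the double mutant with +Lig4 at this minimum. It was called for orientation (29.6 points, exact permutation adjusted p = 0.00635, with 40 of 47 segments called), microhomology (14.9 points, adjusted p = 0.00979, 42 of 47) and insertions (-35.6 points, adjusted p = 0.005, 47 of 47), but not for loss (10.3 bp, exact permutation adjusted p = 0.11, 45 of 46).

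The double mutant had the same kinds of change in Igkv6-32 joins. Opposite rows were 3.44%, 6.71% and 6.25% in +Lig4 clone A1 and 80%, 81.9% and 71.8% in clone A1_1. In lineage C they were 0.534%, 0.525% and 0.317% against 59.5%, 62.6% and 45.7%. The difference was 64.0 points (exact permutation p = 0.005, adjusted p = 0.00619), the second highest of 26 segments, where 88.5% were called higher and the median was 28.8 points. Over all segments the opposite share was 36.3% ± 3.90 (SD, n = 3) in clone A1_1 and 30.9% ± 2.68 in clone C1.

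Microhomology was in 1.84% and 0.419% of Igkv6-32 rows in +Lig4 clones A1 and C and in 17.7% ± 5.47 (SD, n = 3) and 21.3% ± 4.40 in the double mutants. The difference was 18.4 points (exact permutation p = 0.005, adjusted p = 0.00867), 9th of 26, with 92.3% called higher. Overlaps known to match both ends were in 3.94% to 12.1% of rows in double mutant libraries and 0.0792% to 2.56% in +Lig4 libraries, without overlap in either lineage. Inserted bases fell from 49.5% and 50.7% to 2.24% and 3.85% (-47.0 points, exact permutation adjusted p = 0.005, 100% of segments called lower). The median loss was 3 bp in all 6 +Lig4 libraries, 6, 17 and 10 bp in clone A1_1 and 9, 6 and 9 bp in clone C1 (6.50 bp more, exact permutation adjusted p = 0.0052, 100% of segments called higher). These losses of the double mutant and of Ku70-/- clone A1 (12, 7 and 15 bp) overlapped. In lineage A, the opposite share of Igkv6-32 was higher in each double mutant library than in each Ku70-/- library, but 3 against 3 cannot give an exact p below 0.1, so no test was made.

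Without Lig4 alone, joins were rare. The 12 Lig4-/- libraries held 3 to 74 rows each, and 52 of their 490 rows in all were at the 8 segments, 46 of them at Igkv6-32. Igkv6-32 had 5, 10 and 6 rows in the first set of clone A1 (14.3%, 27.0% and 8.11% of the library, the second with an exact Clopper-Pearson 95% interval of 13.8% to 44.1%). It had 1, 6 and 11 rows in the second set, 3, 0 and 4 in clone B1, and 0 of 65 in clone C, which allows a share of up to 4.62%. Of the first set's 21 rows, 18 were in the opposite orientation and 13 had microhomology (61.9%), and of the second set's 18 rows, 7 and 13.

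A few joins recurred in these small libraries. The first join below was the most frequent opposite join of Igkv6-32 in Lig4-/- cells, and it is shown with the most frequent one of Lig4-/- Ku70-/- cells. Both are printed on the strand that reads from Jk1 into the flank, with overlapping bases in capitals.
6-bp overlap: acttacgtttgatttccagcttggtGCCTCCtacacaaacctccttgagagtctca
No overlap: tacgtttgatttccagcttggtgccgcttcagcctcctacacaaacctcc
The 6-bp join lost 12 bp of flank and 13 bp of Jk1 and was 14 of 46 Igkv6-32 rows in Lig4-/- cells (30.4%), in 7 of 12 libraries. It was 58 of 7726 rows (0.751%) in Ku70-/- cells, 30 of 2301 (1.30%) in Lig4-/- Ku70-/- cells, and 0 of 25242 in WT, 0 of 4836 in +Lig4 and 0 of 259 in +Ku70 cells. These shares are of rows in both orientations, and the join can lie only in opposite rows. Opposite rows were 161 in WT, 61 and 17 in +Lig4 clones A1 and C, 3219 in Ku70-/- and 1370 in Lig4-/- Ku70-/- cells. In +Ku70 and Lig4-/- cells opposite rows were only a part of the 259 and 46 rows. So few opposite rows in WT, +Lig4 and +Ku70 cells cannot show whether the join is rarer there. The join with no overlap lost 6 bp of flank and 16 bp of Jk1, and it was 40 of 1370 opposite rows (2.92%) in Lig4-/- Ku70-/- cells and 69 of 3219 (2.14%) in Ku70-/- cells, in 5 of 6 libraries of each. GCCTCC starts at base 13 of the flank in Igkv6-14, Igkv6-15, Igkv6-17, Igkv6-20, Igkv6-23 and Igkv6-32 and is missing in Igkv6-25, and its complement GGAGGC starts at base 14 of the Jk1 end. A 6-bp overlap at the same positions was found in the other members in 4 of 2879 Ku70-/- rows of Igkv6-17, 3 of 295 of Igkv6-20 and 1 of 2538 of Igkv6-25. In Lig4-/- Ku70-/- cells it was found in 1 of 43 rows of Igkv6-15. Rows are not independent molecules, so a join's row count in 1 library may come from 1 event. The most frequent coding join of Igkv6-32 in Lig4-/- cells, with 18 bp and 17 bp lost and a 3-bp overlap, was 11 of 17 coding rows in 3 libraries.

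Returning Ku70 to the double mutant gave libraries of 46 to 75 rows in clone A1_1 and 436 to 612 in clone C1. Igkv6-32 had 0, 1 and 9 rows in the first. In the second it had 33, 153 and 63 rows, or 7.57%, 25.0% and 10.7% of the library, beside 9.69%, 12.5% and 9.74% in Lig4-/- Ku70-/- clone C1, with overlapping values. Of the 249 pooled rows in +Ku70 clone C1, 63.5% were in the opposite orientation and 16.9% had microhomology. The other 7 members together had 22 rows there and were not described further. By the rule for naming genes with a similar pattern, at least 100 rows in every deep library, Igkv6-32 itself had at least 115 and 0 other segments qualified, so none is named.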

How the data were processed

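Per the submitters' processing notes, reads were aligned with Bowtie2 to mm10, with versions not given in the sources used here. The authors deposited junction lists, 1 row per junction read with its position, strand and read, which are other values than counts per gene. Per the labels, libraries were normalised to a set number of raw reads (167151, 377068 or 600000 for lineages A, C and B) and the enzyme blocking step was omitted.

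Rows were given to RefSeq segments (window 100 bp), and usage was taken as percent of the library's rows. limma 3.58.1 (R 4.3.3, limma-trend) was fitted to log2 percent with 0.5 rows added, over 118 of 162 segments (at least 10 rows in 3 libraries) and 24 libraries, with Benjamini-Hochberg adjustment. Join structure was tested by exact permutation (Python 3.11.15, pandas 2.3.3, numpy 2.4.6), and figures were drawn with matplotlib 3.10.9. Rows with an alignment overlap of at least 2 bp counted as microhomology. Tested on simulated data for the Ku70-/- comparison over 118 segments, the usage test recovered 30 of 30 changed segments with 3 false calls. The planted changes were larger than the Ku70-/- differences of these segments. The spread between simulated libraries was set beforehand and not taken from these data. So the simulation checks the running of the test and does not give its power or error rate here.

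All 8 segments are named whatever their values, with the Igkv3 and Igkv8 families for contrast. Up to 3 segments of most similar pattern were to be named too, and none met the rule. The members and lists were chosen with earlier results of these data known. No replicate pair of 42 shared a read name, and all 24 pairs of deep libraries differed in a chi-square test of rows per segment. That test treats rows as independent, which they are not, so it can overstate the differences between replicates. The alternatives were distinct junctions, another window, another added value, no filter, other row minimums, a permutation test, a replicate block and leaving out each library. The other assays of the series were not analysed here.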

Additional observations from a re-analysis of the deposited data

Results flagged for a closer look

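The Lig4-/- Ku70-/- effect on the usage of Igkv6-32 was larger in lineage C than in lineage A, with a difference of 0.63 on the log2 scale (SE 0.207, limma interaction contrast, adjusted p = 0.0400). It was 1.21 in lineage C and 0.58 in lineage A, each against the +Lig4 cells of the lineage. The same effect on Igkv6-25 was lower in lineage C than in lineage A by a log2 difference of -1.42 (SE 0.412, limma adjusted p = 0.0218), being -1.99 in lineage C and -0.57 in lineage A. Both contrasts were added after the data were seen.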

How the results depend on the processing

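Each library was left out in turn. The higher share of Igkv6-32 and the lower shares of Igkv6-17 and Igkv6-25 then kept their side of the threshold in both 2-lineage comparisons. The log2 difference of Igkv6-32 ran from 0.67 to 0.80 for Ku70-/- and from 0.79 to 0.98 for the double mutant. Replicate numbers did not pair the libraries (correlations from -0.285 to 0.255 for Ku70-/- against WT), and with the replicate block the adjusted p of Igkv6-32 was 8.26e-06 and 3.55e-07. The replicate block gave 9 calls in place of 14 over all segments for +Lig4 against WT, and for microhomology in the double mutant 0 of 26, with Igkv6-32 at 18.4 points and adjusted p = 0.0508, where the smallest p a block allows is 0.0312. It changed no other call among the 8 segments.

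Of the 8 segments, 4 were called for Ku70-/- against WT. This was 7 with distinct junctions, 7 by exact permutation, 7 for coding-orientation rows as percent of all rows and 1 as percent of those rows. Over all segments 34 became 63 with distinct junctions, 55 with no filter and 52 for coding-orientation rows as percent of all rows. As percent of coding-orientation rows, 22.0% of all segments were called. The 9 alternatives that kept every library, the permutation test among them, gave 26 to 63 calls over all segments. For the double mutant against +Lig4, 4 of 8 became 7 with distinct junctions. Over all segments 68 calls became 51 to 88 in the 9 alternatives that kept every library. Against Ku70-/-, 2 of 8 became 1 with a 20-bp window and 1 to 2 when a library was left out (1 without clone A1_1 replicate 1), and 35 segments became 23 for coding-orientation rows as percent of those rows. The 8 alternatives of this comparison that kept every library gave 23 to 48 calls over all segments. For +Lig4 against WT, 0 of 8 became 1 with 0.1 percentage points added, and 14 segments became 37 with no filter, 8 and 7 for coding-orientation rows, and 7 to 12 when a library was left out. Its 8 alternatives that kept every library gave 7 to 37 calls over all segments.

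Directions reversed as follows (log2). Igkv6-32 in coding-orientation rows as percent of all rows was -0.23 for Ku70-/- and -0.76 for the double mutant, and -0.18 as percent of those rows. With distinct junctions it was 0.15 for the double mutant against Ku70-/- and 0.23 for +Lig4 against WT, and leaving out a library gave -0.29 to 0.0742 and -0.18 to 0.0722. Igkv6-13 was -0.41 (Ku70-/-) and -0.77 (+Lig4) with distinct junctions, and -0.0272 in the double mutant and -0.0279 in +Lig4 with 0.1 points added. Igkv6-14 in the double mutant against +Lig4 was -0.63 with distinct junctions, -0.58 with a 20-bp window, -1.22 and -1.80 in coding-orientation rows, and -0.34 to 0.67 with a library left out (-0.03, -0.34 and -0.05 reversed). In +Lig4 against WT it was 0.18 with distinct junctions and -0.39 to 0.0780 with a library left out. Igkv6-23 was -0.32 to 0.38 with a library left out (0.38 and 0.07 reversed). Igkv6-20 was 0.0500 for the double mutant against Ku70-/- as percent of coding-orientation rows.

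Numbers of segments called for join structure changed with the number deep enough to test. In each of the 4 measures, Ku70-/- gave 15 of 15 with distinct junctions and 16 of 16 with at least 50 rows, and the double mutant 11 of 11 and 8 of 8. With at least 10 rows the double mutant gave 42 of 47 for microhomology, 45 of 46 for loss, 47 of 47 for insertions and 40 of 47 for orientation. Leaving out a library gave 45 to 66 for Ku70-/- and 18 to 37 for the double mutant over the 4 measures, with 22 to 35 for orientation (35 without clone A1_1 replicate 1). The planned exact permutation of single-lineage usage was not run, since 3 against 3 cannot go below 0.1. The cause of the changes beyond fewer or more segments tested was not tested. Igkv6-13, Igkv6-14, Igkv6-15 and Igkv6-23 are limited by depth in lineages A and C.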
